A study of Mus musculus with 30 samples.

Results

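The 8 genes described are mouse genes of the inflammasome and of innate signalling through CARD proteins: the sensors Nlrp3, Nlrc4 and Aim2, the adaptor Pycard, the caspases Casp1 and Casp4, the pore-forming effector Gsdmd, and the adaptor Card9. They were taken by name from the 50686 genes listed in each RNA library, and all 8 were found. The RNA is of 2 cell lines of mouse blood stem and progenitor type, HPCLSK (strain C57BL/6N in the labels) and HPC7 (strain 129SV in the labels), both grown with stem cell factor in the medium. HPCLSK cells were kept on plates coated with agarose. Each line carried 1 of 3 retroviral vectors: STAT3 Y640F (Y640F below), a change in the SH2 domain of the transcription factor STAT3 that is known to activate it, STAT3 without that change, or the empty vector with the dsRed marker. There were thus 6 groups of 3 libraries (18 libraries), and 12 chromatin samples of HPC7 were not analysed here; the labels of those give HPC7 as C57BL/6N. In the series text the 3 libraries of a group are called technical replicates, and the errors and p-values below measure the spread between these libraries and not between separate transductions.

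An inflammasome forms when a sensor protein meets a danger signal or a microbial product and binds the adaptor ASC, encoded by Pycard, which gathers the protease caspase-1. Caspase-1 cuts the precursors of interleukin-1 beta and interleukin-18, and it cuts gasdermin D, whose released part forms pores in the plasma membrane and lets the cell die by pyroptosis. Caspase-11, the product of mouse Casp4, cuts gasdermin D directly when it binds bacterial lipopolysaccharide, while CARD9 belongs to a separate route that carries signals from C-type lectin receptors to NF-kB. In the blood system these genes are best known from macrophages and neutrophils.

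On GRCm38, as the deposited annotation places them, Aim2 (ENSMUSG00000037860.15) lies at chr1:173350879-173466040 on the plus strand, Card9 (ENSMUSG00000026928.14) at chr2:26352176-26360918 on the minus strand and Pycard (ENSMUSG00000030793.4) at chr7:127989708-127993867 on the minus strand. The caspase genes are neighbours on the plus strand of chromosome 9, Casp1 (ENSMUSG00000025888.5) at chr9:5298517-5307265 and Casp4 (ENSMUSG00000033538.13) at chr9:5308828-5336783. Nlrp3 (ENSMUSG00000032691.14) lies at chr11:59541568-59566956 and Gsdmd (ENSMUSG00000022575.4) at chr15:75862339-75867404, both on the plus strand, and Nlrc4 (ENSMUSG00000039193.7) at chr17:74426295-74459108 on the minus strand. Exons of 6 of the genes overlap no other annotated exon. Pycard shares 485 of its 3800 exon bases with Gm45205 and Card9 shares 87 of 2293 with Gm13562, each on the opposite strand. The opposite-strand genes held 216 and 19 counts over all 18 libraries.

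The smallest library held 9537258 counts and the largest 38556669. Levels are in CPM, a count divided by the TMM-adjusted library total and scaled up to a fixed library size, with TMM factors of the line unless both lines are compared. A library with 3 counts of a gene has it at 0.0778 to 0.315 CPM of the unadjusted total. A gene was called higher or lower at a Benjamini-Hochberg adjusted p under 0.05 in edgeR's quasi-likelihood test and a fold of at least 2, which is 1 on the log2 scale. All 12 stem and progenitor markers were detected in both lines. Stat3 RNA, which holds vector and endogenous transcripts together, averaged 1882 CPM with Y640F, 591 with STAT3 and 349 with empty vector in HPCLSK, and 684, 1005 and 227 CPM in HPC7 in the same order. The groups thus differ both in the changed residue and in the amount of Stat3 RNA, and the order of the amounts differs between the lines. Stat3 RNA was higher with Y640F than with STAT3 in HPCLSK, and lower in HPC7. Socs3, read as a check of the labels, averaged 194, 39.8 and 28.1 CPM in HPCLSK and 16.0, 1.68 and 3.20 CPM in HPC7 in the same order. The parts of the residue and of the amount in the changes below were not tested. Libraries of a group were set against each other in pairs by the chi-square of their counts over its degrees of freedom, which ran from 2.61 to 29.37. The first Y640F library of HPCLSK differed most from the others of its group (23.02 and 29.37, against 3.49 for the other pair). The first empty vector library of HPCLSK (11.47 and 8.66, against 2.61) and the 3 empty vector libraries of HPC7 (11.13 to 21.93) also differed more than most.

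The lines differed most in the executioner end of the pathway. Casp1, the protease at the centre of the inflammasome, and Gsdmd, the pore-forming effector, had 0 counts in all 9 HPC7 libraries, out of 283443056 counts in total, while both were well expressed in all 9 HPCLSK libraries. A count of 0 over these libraries allows a level of up to 0.0106 CPM of the unadjusted totals (3 counts, counting error only). With empty vector, Casp1 had 2270 counts in HPCLSK and 0 in HPC7, and was at least 1190-fold higher in HPCLSK. Gsdmd had 3415 counts in HPCLSK and 0 in HPC7, at least 1790-fold higher in HPCLSK. Casp4, the lipopolysaccharide sensor caspase, had 420 counts in HPCLSK and 0 in HPC7 with empty vector, at least 220-fold higher in HPCLSK, against a floor of 3 counts over each group. These bounds cover counting error only. Over all 9 HPC7 libraries Casp4 had 2 counts, 1 in each of 2 Y640F libraries. Of 8196 genes with at least 10 CPM of the unadjusted total in every HPCLSK library, 50 (0.61%) were at 0 in all 9 HPC7 libraries. Casp1 and Gsdmd are among these 50.

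The remaining genes were detected in both lines. With empty vector and CPM scaled over all 18 libraries, Nlrp3, a sensor of potassium loss and membrane damage, averaged 11.6 CPM in HPCLSK and 0.116 CPM in HPC7 (log2 fold change 6.53 ± 0.47, SE; adjusted p = 1.7e-10, edgeR). Card9 averaged 30.9 CPM in HPCLSK and 4.77 CPM in HPC7 (2.74 ± 0.21, adjusted p = 5.7e-10, edgeR). Pycard averaged 89.0 CPM in HPCLSK and 19.7 CPM in HPC7 (2.18 ± 0.16, adjusted p = 2.6e-10, edgeR). Nlrc4, which signals bacterial flagellin and secretion proteins bound by NAIP partners, averaged 27.3 CPM in HPCLSK and 11.4 CPM in HPC7 (1.26 ± 0.10, adjusted p = 4.0e-10, edgeR). Aim2, a sensor of cytosolic double-stranded DNA, alone among the 8 went the other way, with 32.7 CPM in HPCLSK and 102 CPM in HPC7 (−1.65 ± 0.08, adjusted p = 7.6e-13, edgeR). In all, 7 of the 8 genes were called higher in HPCLSK and 1 was called lower, where 22.8% of all 13891 genes tested were called higher and 13.6% lower. Casp1, Casp4, Gsdmd and Nlrp3 were below the count filter in HPC7 and entered this test through HPCLSK alone. Their direction was thus set by the filter, and their calls are no separate result. Of the genes that passed in both lines, Pycard, Nlrc4 and Card9 were called higher and Aim2 lower. Summed over their lists, myeloid markers also stood higher in HPCLSK than in HPC7 with empty vector. Fcgr1 went the other way, at 2.29 CPM in HPCLSK and 8.73 CPM in HPC7. The summed CPM (scaled within each line) of 12 monocyte and macrophage markers were 1056 to 1255 in HPCLSK and 51.9 to 56.8 in HPC7, and those of 12 neutrophil markers 7166 to 11414 in HPCLSK and 334 to 682 in HPC7. Single genes made up most of these sums, except for monocyte and macrophage markers in HPC7: Lyz2 averaged 700 CPM in HPCLSK, and Mpo 7791 CPM in HPCLSK and 469 CPM in HPC7. Ccr2 and Lyz2 averaged 14.9 and 10.3 CPM in HPC7. Other lineages differed too. Of 6 tested mast cell and basophil markers 5 were called higher in HPCLSK and 1 lower, and of 6 tested erythroid markers 1 higher and 5 lower. Within HPC7 only 3 of the mast cell and basophil markers passed the filter, and within HPCLSK only 3 of the erythroid markers did. Markers that entered through 1 line alone had their direction set by the filter, and their calls are no separate result. The part of other cells in these differences was not tested, and in bulk RNA fewer expressing cells and less RNA per cell cannot be told apart. The lines also carry different strain labels and, per the file headers, come from different sequencing runs, so that line, strain and run cannot be told apart.

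**Figure D1:**
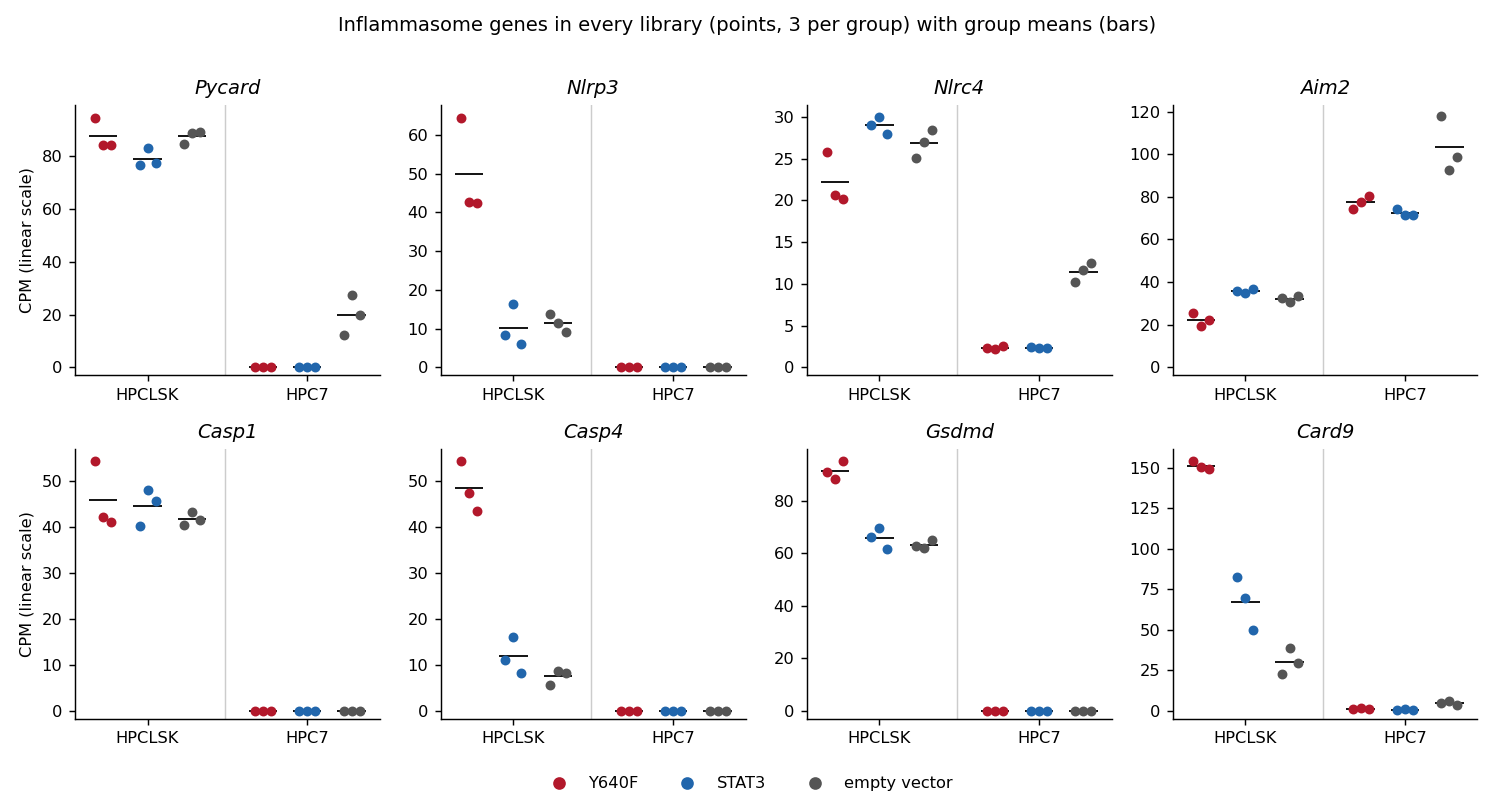
Level of each of the 8 genes in CPM (linear axis, scaled within each line) in every library, with Y640F, STAT3 and empty vector from left to right in HPCLSK and then in HPC7; points are libraries and bars are group means. Casp1 and Gsdmd lie at 0 in all 9 HPC7 libraries, Pycard is near 0 in HPC7 with both STAT3 forms, and Card9, Casp4 and Nlrp3 are highest in the 3 Y640F libraries of HPCLSK.

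The promoters of Pycard and Card9, whose RNA fell in HPC7 with both STAT3 forms (below), and of Casp1 and Casp4, which were at or near 0 counts there, are shown for reference. Each line holds the 250 bases upstream of the RefSeq transcription start on GRCm38.p6, read 5′ to 3′ on the strand of the gene, with CpG dinucleotides in capitals. The windows are chr7:127993868-127994117 (minus strand), chr9:5298267-5298516 (plus strand), chr9:5308599-5308848 (plus strand, the first of its start sites) and chr2:26360910-26361159 (minus strand).
Pycard: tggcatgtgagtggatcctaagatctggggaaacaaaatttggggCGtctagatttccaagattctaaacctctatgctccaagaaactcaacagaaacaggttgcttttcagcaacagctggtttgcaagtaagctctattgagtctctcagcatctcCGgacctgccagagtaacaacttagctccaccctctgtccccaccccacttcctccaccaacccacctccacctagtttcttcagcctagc
Casp1: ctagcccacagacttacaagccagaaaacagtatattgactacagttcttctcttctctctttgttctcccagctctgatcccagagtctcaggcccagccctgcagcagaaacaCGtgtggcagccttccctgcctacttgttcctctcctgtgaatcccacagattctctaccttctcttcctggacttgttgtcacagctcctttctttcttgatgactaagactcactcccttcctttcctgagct
Casp4: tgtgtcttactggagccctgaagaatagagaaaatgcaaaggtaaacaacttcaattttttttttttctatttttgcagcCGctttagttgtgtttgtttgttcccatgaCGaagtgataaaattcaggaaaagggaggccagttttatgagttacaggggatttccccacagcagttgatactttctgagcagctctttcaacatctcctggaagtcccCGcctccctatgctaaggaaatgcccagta
Card9: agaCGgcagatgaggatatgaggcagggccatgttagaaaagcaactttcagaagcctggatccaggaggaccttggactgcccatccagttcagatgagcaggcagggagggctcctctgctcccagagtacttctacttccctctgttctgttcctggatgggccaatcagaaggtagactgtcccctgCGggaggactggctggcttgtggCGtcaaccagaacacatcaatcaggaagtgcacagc
RefSeq promoter windows were matched for 7 of the 8 genes, 9 windows in all. The reference is of a C57BL/6J mouse, so the sequence of the 129SV line was not read. The 9 windows hold 1 to 4 CpG dinucleotides each. The median over 32851 mouse promoter windows is 6 and 44.4% of windows hold 4 or fewer, so such counts are common. The windows of the 2 Casp4 start sites overlap almost in full and are not separate. On both strands, 0 of the 9 windows hold the STAT motif TTCNNNGAA, which 7.02% of all windows hold. This says only that these letters are not in these windows.

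Ranked per kilobase of exon, so that genes can be compared with each other, Gsdmd stood at the top in HPCLSK with empty vector, at a mean of 35.6 CPM per kb. It was followed by Casp1 at 27.9, Pycard at 23.0, Card9 at 13.3, Aim2 at 9.18, Nlrc4 at 6.99, Nlrp3 at 2.82 and Casp4 at 2.03 CPM per kb. Only the last pair overlapped between libraries. With Y640F in HPCLSK, Card9 stood first at 66.0 CPM per kb, ahead of Gsdmd at 51.5, Casp1 at 30.7 and Pycard at 23.1. Casp4 at 13.1 and Nlrp3 at 12.3 overlapped each other, as did Aim2 at 6.40 and Nlrc4 at 5.78. In HPC7 with empty vector the order was Aim2 at 29.5, Pycard at 5.22, Nlrc4 at 2.99, Card9 at 2.10 and Nlrp3 at 0.0288 CPM per kb, with Pycard and Nlrc4 overlapping. With either STAT3 form in HPC7, Aim2 was the single gene of the 8 above 1 CPM per kb, at 22.1 with Y640F and 20.7 with STAT3.

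**Figure D2:**
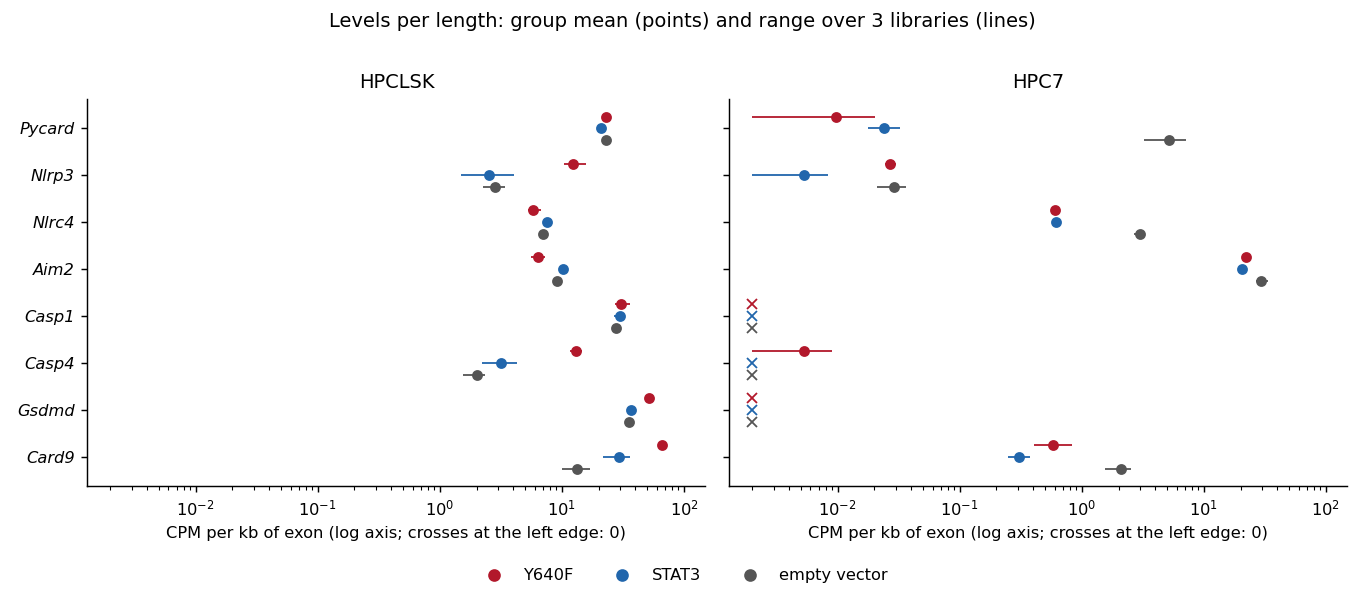
Levels in CPM per kb of exon on a log axis for HPCLSK (left) and HPC7 (right), with Y640F, STAT3 and empty vector from top to bottom for each gene; points are means of 3 libraries, lines run from the lowest to the highest library, and crosses at the left edge stand for 0 in all 3 libraries (a line that reaches the left edge includes a library at 0). In HPCLSK all 8 genes lie above 1 CPM per kb, while in HPC7 only Aim2 does so in every group.

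In HPCLSK, Y640F went with higher RNA of a sensor, an upstream caspase and CARD9. The adaptor, caspase-1, Gsdmd and the sensors Nlrc4 and Aim2 changed by less than a factor of 2. Casp4, Card9 and Nlrp3, 3 of the 8 genes, were called higher with Y640F against empty vector, where 9.62% of all 12552 genes tested were called higher. By edgeR 0 were called lower (6.57% of all genes), 2 had a lower mean at an unadjusted p under 0.05, and DESeq2 also called 0 lower. Casp4 stood at 54.4, 47.5 and 43.6 CPM with Y640F, 11.2, 16.1 and 8.25 CPM with STAT3, and 5.71, 8.64 and 8.24 CPM with empty vector. The Y640F libraries were all above the others, and the STAT3 and empty vector libraries overlapped. The log2 fold change of Casp4 was 2.66 ± 0.21 for Y640F against empty vector (adjusted p = 2.5e-06, edgeR). Nlrp3 stood at 64.4, 42.6 and 42.4 CPM with Y640F, 8.36, 16.3 and 6.01 CPM with STAT3, and 13.8, 11.4 and 9.09 CPM with empty vector. The first Y640F library was the highest, and no Y640F library overlapped with the other groups. The log2 fold change of Nlrp3 was 2.13 ± 0.29 for Y640F against empty vector (adjusted p = 1.1e-04, edgeR).

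Card9 was graded in HPCLSK. It stood at 154, 151 and 149 CPM with Y640F, 82.4, 69.3 and 49.9 CPM with STAT3, and 22.9, 38.7 and 29.6 CPM with empty vector. The 3 groups did not overlap, with Y640F highest and empty vector lowest. Its log2 fold change against empty vector was 2.30 ± 0.19 for Y640F (adjusted p = 3.1e-06, edgeR) and 1.13 ± 0.19 for STAT3 (adjusted p = 0.0026, edgeR). Card9 was the single gene of the 8 called higher with STAT3 against empty vector, where 2.80% of all genes were called higher. By edgeR 0 were called lower with STAT3 (1.79% of all genes), with 1 at an unadjusted p under 0.05 and 0 by DESeq2. The STAT3 call is close to the fold minimum: the log2 fold change was 0.98 without the first empty vector library and 0.97 without the first STAT3 library, and Card9 was then not called.

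Against STAT3, Y640F gave the same 3 genes in HPCLSK, Nlrp3 (log2 fold change 2.20 ± 0.30, adjusted p = 1.4e-04, edgeR), Casp4 (1.98 ± 0.20, adjusted p = 2.1e-05, edgeR) and Card9 (1.16 ± 0.18, adjusted p = 3.1e-04, edgeR). Of all genes 8.11% were called higher and 6.09% lower in this comparison. By edgeR 0 of the 8 were called lower, with 2 at an unadjusted p under 0.05 and 0 by DESeq2. The Card9 call lies close to the fold minimum: Card9 was not called without the third STAT3 library (0.98) or when tested against the fold minimum itself (glmTreat in edgeR, adjusted p = 0.598). Both Y640F comparisons use the same Y640F libraries.

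The other 5 genes of the pathway held their level within a factor of 2 in HPCLSK. Gsdmd stood at 90.9, 88.2 and 95.1 CPM with Y640F, 66.1, 69.8 and 61.4 CPM with STAT3, and 62.7, 62.1 and 64.9 CPM with empty vector. All Y640F libraries were above the rest, by a log2 fold change of 0.53 ± 0.06 against empty vector (adjusted p = 2.0e-05, edgeR), which is under the fold minimum. Aim2 ran from 19.6 to 25.4 CPM with Y640F, 34.6 to 36.8 CPM with STAT3 and 30.5 to 33.5 CPM with empty vector. Its Y640F libraries were all below the others, at −0.52 ± 0.09 against empty vector (adjusted p = 5.8e-04, edgeR) and −0.67 ± 0.09 against STAT3 (adjusted p = 1.4e-04, edgeR). Nlrc4 averaged 22.2 ± 3.13 CPM with Y640F, 29.0 ± 1.05 CPM with STAT3 and 26.8 ± 1.69 CPM with empty vector (SD, n = 3 each), and its Y640F and empty vector libraries overlapped (−0.28 ± 0.10, adjusted p = 0.030, edgeR). Pycard, the adaptor, ran from 84.2 to 94.6 CPM with Y640F, 76.7 to 83.0 CPM with STAT3 and 84.5 to 89.2 CPM with empty vector. Its log2 fold change for Y640F against empty vector was 0.00064 ± 0.06, with a 95% interval from −0.13 to 0.13. Casp1 ran from 41.1 to 54.3 CPM with Y640F, 40.2 to 48.1 CPM with STAT3 and 40.4 to 43.4 CPM with empty vector (0.13 ± 0.11 for Y640F against empty vector, 95% interval −0.10 to 0.37). For STAT3 against empty vector the log2 fold change of Casp4 was 0.68 ± 0.22 (95% interval 0.18 to 1.18, adjusted p = 0.072, edgeR), and the 95% intervals were −0.77 to 0.64 for Nlrp3 and −0.067 to 0.19 for Gsdmd.

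**Figure D3:**
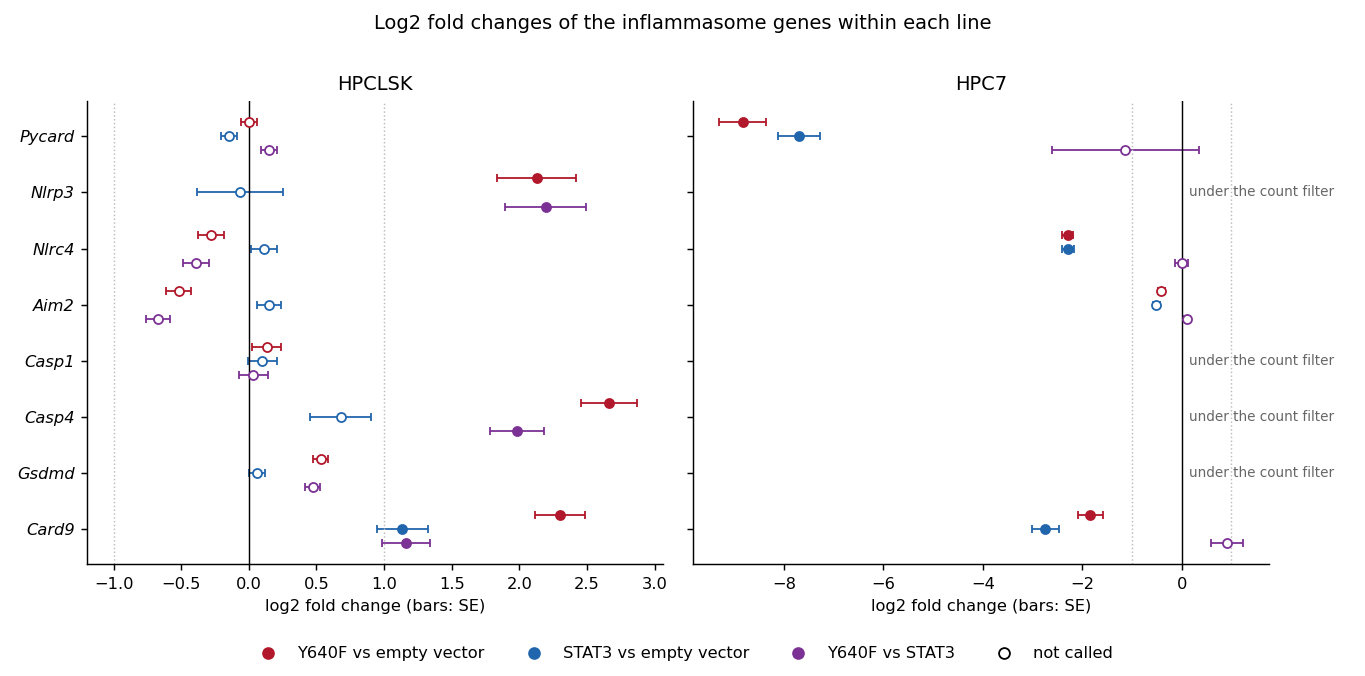
Log2 fold changes of the 8 genes (points, with SE bars) for Y640F against empty vector, STAT3 against empty vector and Y640F against STAT3 in HPCLSK (left) and HPC7 (right); filled points were called, open points were not, dotted lines mark the fold minimum, and the horizontal axes differ. In HPCLSK the called points are Nlrp3, Casp4 and Card9 to the right of 0, and in HPC7 they are Pycard, Nlrc4 and Card9 to the left of 0.

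The first Y640F library of HPCLSK had the highest CPM of its group in 7 of the 8 genes, Gsdmd being the exception. Leaving out any 1 library of either group, or the first Y640F and the first empty vector library together, kept the count of genes called higher with Y640F at 3. Over all alternatives tried, the log2 fold change for Y640F against empty vector ran from 2.40 to 2.78 for Casp4, 1.88 to 2.24 for Nlrp3 and 2.10 to 2.52 for Card9. Markers of mature myeloid cells and of other lineages moved with these genes. Of 12 monocyte and macrophage markers 10 were called higher with Y640F and none was at 0 in any HPCLSK group. Their summed CPM were 6594 to 9731 with Y640F, 1158 to 2070 with STAT3 and 1056 to 1255 with empty vector. Lyz2 made up most of the Y640F sum, at 6041 CPM scaled over all 18 libraries. Of 10 tested neutrophil markers 4 were called higher and 3 lower with Y640F, and 8 were called higher with STAT3. The neutrophil sums were 12892 to 17436 CPM with Y640F, 13481 to 20558 CPM with STAT3 and 7166 to 11414 CPM with empty vector, where Ly6g was at 0. Mpo alone averaged 11168 CPM with STAT3 and 7791 CPM with empty vector, most of those 2 sums. Of 5 tested mast cell and basophil markers 3 were called lower with Y640F, and none was at 0. Of 7 tested megakaryocyte markers 1 was called higher and 4 lower with Y640F, with sums of 491 to 727 CPM with Y640F, 799 to 908 CPM with STAT3 and 1177 to 1678 CPM with empty vector. The sums of the 12 stem and progenitor markers were also lower with Y640F, at 3653 to 4286 CPM, than with STAT3 (5650 to 5884 CPM) or empty vector (6364 to 6731 CPM), and 2 of these markers were called higher and 2 lower with Y640F. The part of these cells in the changes of the 3 genes was not tested.

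In HPC7 the called changes were all falls. Nlrp3, Casp1, Casp4 and Gsdmd were below the count filter, so that 4 of the 8 genes were tested, and 3 of these, Pycard, Nlrc4 and Card9, were called lower with either STAT3 form against empty vector. Of all 12683 genes tested, 3.64% were called lower and 4.54% higher with Y640F, and 5.41% were called lower and 1.81% higher with STAT3. By edgeR 0 of the 4 genes were called higher with either form, with 0 at an unadjusted p under 0.05 and 0 by DESeq2. Both forms are compared with the same 3 empty vector libraries.

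Pycard was nearly absent from HPC7 with either STAT3 form. It stood at 0.0333, 0 and 0.0768 CPM with Y640F, 0.124, 0.0815 and 0.0675 CPM with STAT3, and 12.3, 27.2 and 19.96 CPM with empty vector. In counts over 3 libraries these are 4 with Y640F, 9 with STAT3 and 1628 with empty vector. All 6 libraries with a STAT3 form were below all 3 empty vector libraries. By summed counts Pycard was 499 times lower with Y640F (95% interval 195 to 1835, counting error only) and 216 times lower with STAT3 (113 to 472). The fitted log2 fold change was −8.84 ± 0.47 for Y640F (adjusted p = 5.4e-09, edgeR) and −7.70 ± 0.42 for STAT3 (adjusted p = 8.7e-09, edgeR). Over all alternatives tried, leaving out each empty vector library included, it ran from −9.94 (without the third Y640F library) to −8.32 (without the second) for Y640F, and from −7.96 to −7.42 for STAT3. At 4 and 9 counts the difference between the forms was not detectable (−1.13 ± 1.48, adjusted p = 0.55, edgeR; 95% interval −4.32 to 2.05).

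Nlrc4 fell with both forms in HPC7. It stood at 2.27, 2.24 and 2.51 CPM with Y640F, 2.38, 2.31 and 2.36 CPM with STAT3, and 10.2, 11.7 and 12.5 CPM with empty vector. The empty vector libraries were all above the others, and those of the STAT3 forms overlapped. Against empty vector, the log2 fold change was −2.29 ± 0.11 for both Y640F (adjusted p = 2.2e-09, edgeR) and STAT3 (adjusted p = 3.2e-09, edgeR). Between the forms it was −0.0016 ± 0.13, with a 95% interval from −0.29 to 0.28.

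Card9 fell with both forms in HPC7. It stood at 0.934, 1.90 and 1.15 CPM with Y640F, 0.649, 0.869 and 0.573 CPM with STAT3, and 5.03, 5.85 and 3.57 CPM with empty vector. The 3 groups did not overlap, with empty vector highest and STAT3 lowest. Against empty vector, Card9 changed by −1.84 ± 0.24 on the log2 scale for Y640F (adjusted p = 2.3e-05, edgeR) and −2.74 ± 0.27 for STAT3 (adjusted p = 2.2e-06, edgeR). For Y640F against STAT3 it was 0.91 ± 0.32 (adjusted p = 0.028, edgeR), under the fold minimum. In that comparison 6.17% of all genes were called higher and 1.73% lower. By edgeR 0 of the 4 tested genes were called in either direction, with 1 higher and 0 lower at an unadjusted p under 0.05 and 0 by DESeq2. Card9 passed the fold minimum without the second STAT3 library (1.11), the first Y640F library (1.09) or the third Y640F library (1.02). Chromosome 2, which holds Card9, had a median log2 fold change of 0.44 for Y640F against STAT3 over 1007 tested genes. The median of all genes tested was −0.00054. The 20 tested genes around Card9 had a median of 0.56, with 4 called higher and 0 lower. The part of this shift of the chromosome in the Card9 difference was not tested.

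Aim2 was the gene of the 8 that HPC7 kept at a high level. It ran from 74.2 to 80.6 CPM with Y640F, 71.3 to 74.3 CPM with STAT3 and 92.7 to 118 CPM with empty vector. All libraries with a STAT3 form were below the empty vector libraries. The log2 fold change was −0.41 ± 0.07 for Y640F (adjusted p = 2.0e-04, edgeR) and −0.51 ± 0.07 for STAT3 (adjusted p = 4.5e-05, edgeR), both under the fold minimum. Nlrp3 had 11 counts with Y640F, 2 with STAT3 and 10 with empty vector over 3 libraries. By summed counts it was 5.96 times lower with STAT3 than with empty vector (95% interval 1.27 to 56.0) and 1.12 times lower with Y640F than with empty vector (0.425 to 2.89). Markers of several blood lineages also moved in HPC7. Of 5 tested neutrophil markers 4 were called lower with each form, with sums of 130 to 151 CPM with Y640F, 267 to 288 CPM with STAT3 and 334 to 682 CPM with empty vector. Mpo made up most of these sums, averaging 128, 272 and 469 CPM in the same order. Of 8 tested monocyte and macrophage markers 4 were called lower with STAT3, and 1 was called higher and 1 lower with Y640F, with sums of 68.5 to 71.9 CPM with Y640F, 30.2 to 32.9 CPM with STAT3 and 51.9 to 56.8 CPM with empty vector. Ly6g, Mmp8, Retnlg and Ms4a7 were at 0 in all HPC7 groups. Of 6 tested erythroid markers 5 were called higher with Y640F and none was called with STAT3, with sums of 48.0 to 59.97 CPM with Y640F, 18.7 to 23.8 CPM with STAT3 and 21.7 to 27.9 CPM with empty vector. Of 8 tested megakaryocyte markers 3 were called higher with STAT3, and 1 was called in each direction with Y640F, with sums of 632 to 659 CPM with Y640F, 976 to 992 CPM with STAT3 and 588 to 707 CPM with empty vector. Of 6 tested dendritic cell markers 2 were called higher and 1 lower with Y640F, and 3 higher and 1 lower with STAT3. Of 12 stem and progenitor markers 2 were called higher and 3 lower with Y640F, and 3 were called lower with STAT3, none being at 0. The part of these markers' cells in the lower levels was not tested.

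The genes that lie around the fallen genes of HPC7 were read as well. The 10 nearest tested genes on each side of Pycard on chromosome 7, spanning 540 kb, had a median log2 fold change of 0.12 with Y640F and 0.19 with STAT3, with 2 called higher and none lower with Y640F, and 1 called in each direction with STAT3. Around Nlrc4 the median of the 20 neighbours was −0.27 with Y640F and −0.12 with STAT3, with 1 called lower and none higher for each form. Around Card9 it was 0.57 with Y640F, where all of chromosome 2 had a median of 0.47, and −0.0012 with STAT3. Of those 20 neighbours of Card9, 1 was called higher and 1 lower with Y640F, and 5 were called lower and none higher with STAT3, where 5.41% of all genes were called lower. Around Aim2 their median was −0.64 with Y640F and −1.25 with STAT3, 3 and 12 of the 20 were called lower in the same order, and the median over chromosome 1 was −0.34 with either form.

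**Figure D4:**
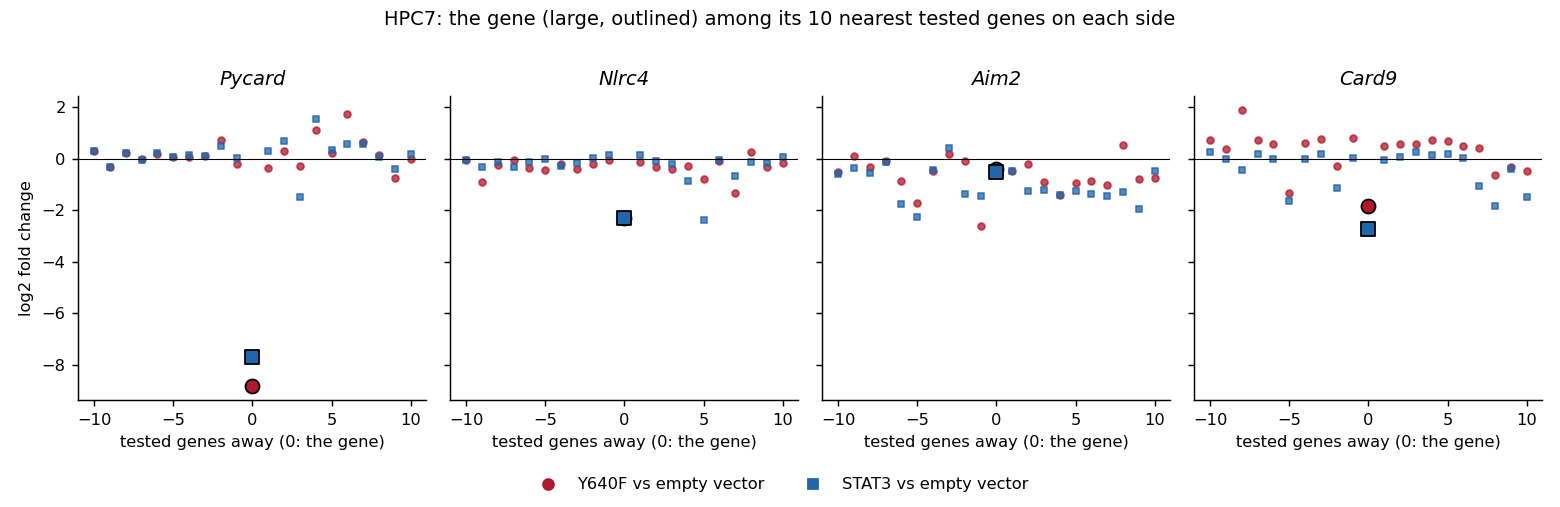
Log2 fold changes against empty vector in HPC7 of Pycard, Nlrc4, Aim2 and Card9 (large outlined symbols at 0) and of the 10 nearest tested genes on each side, in order along the chromosome; circles are Y640F and squares are STAT3. Pycard lies at −8.84 and −7.70 among neighbours with medians of 0.12 and 0.19, while Aim2 lies within the range of its neighbours.

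The difference between the lines was tested for the 4 genes with enough counts in both, as the response in HPCLSK minus the response in HPC7 in the fit of all 18 libraries. For Y640F it was 8.80 ± 0.49 for Pycard (adjusted p = 9.4e-11, edgeR), 4.13 ± 0.35 for Card9 (adjusted p = 1.9e-08, edgeR) and 2.02 ± 0.15 for Nlrc4 (adjusted p = 4.1e-09, edgeR) on the log2 scale. For Aim2 it was −0.10 ± 0.12 (adjusted p = 0.54, edgeR; 95% interval −0.34 to 0.15). For STAT3 it was 7.53 ± 0.44 for Pycard (adjusted p = 4.4e-10, edgeR), 3.86 ± 0.39 for Card9 (adjusted p = 4.3e-07, edgeR) and 2.39 ± 0.15 for Nlrc4 (adjusted p = 9.2e-10, edgeR). For Aim2 it was 0.66 ± 0.12 (adjusted p = 2.4e-04, edgeR), under the fold minimum. For that same STAT3 difference chromosome 1, which holds Aim2, had a median of 0.43 over 866 tested genes. The median of all genes tested was 0.0054. The 20 tested genes around Aim2 had a median of 1.09, with 5 called higher and 0 lower. The part of this shift of the chromosome in the Aim2 difference was not tested. So 3 of these 4 genes were called as responding higher in HPCLSK for each form. Of all 13891 genes in the fit 7.74% were called so and 7.25% the other way for Y640F, and 6.16% and 2.09% for STAT3. Those shares include genes below the filter in 1 line, so they are not of the same kind of gene as these 4. Card9 alone moved in opposite directions, higher in HPCLSK and lower in HPC7 with both forms, while Pycard and Nlrc4 were called in HPC7 and not in HPCLSK. In HPCLSK with Y640F, the genes at 0 or near it in HPC7 stood at least 1587-fold higher than in HPC7 for Casp1, at least 3213-fold for Gsdmd, and 2518 times higher for Casp4 (2450 and 2 counts; 95% interval 696 to 20807).

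The wider pathway was described with a list of 68 further genes: other sensors, substrates with further caspases and gasdermins, regulators, and the lectin receptors and partners of CARD9. Of these, the regulator Irgb10 matched no symbol and was not read. In HPCLSK with Y640F, 18 of 58 tested were called higher and 2 lower against empty vector. The median log2 fold change of the 58 genes was 0.45, and that of all genes tested was −0.0058. Of all genes, 9.62% were called higher and 6.57% lower. By group, 6 of 14 other sensors, 4 of 10 substrates, 3 of 21 regulators and 5 of 13 genes around CARD9 were called higher, so that the regulators lay nearest to the share of all genes. The genes called lower were the sensors Nlrp10 (3.40 CPM with Y640F and 12.4 CPM with empty vector, −1.87 ± 0.22) and Nlrc3 (27.5 and 64.6 CPM in the same order, −1.23 ± 0.10), named here after their values were seen. The largest called changes were in Clec4n, which encodes the receptor dectin-2 that signals through CARD9, at 136 CPM with Y640F and 0.916 CPM with empty vector (7.21 ± 0.58, adjusted p = 2.9e-06, edgeR). Clec7a, which encodes dectin-1, stood at 64.4 CPM with Y640F and 2.42 CPM with empty vector (4.65 ± 0.45, adjusted p = 1.1e-05, edgeR). Il1b, which encodes the interleukin-1 beta precursor that caspase-1 cuts, stood at 33.9 CPM with Y640F and 1.60 CPM with empty vector (4.42 ± 0.21, adjusted p = 1.3e-07, edgeR). Tgm2, a transglutaminase gene, stood at 51.9 CPM with Y640F and 1.85 CPM with empty vector (4.85 ± 0.36, adjusted p = 1.8e-06, edgeR). Against STAT3, 17 of 58 were called higher and 2 lower (8.11% and 6.09% of all genes), led by Clec4n, Clec7a, Tgm2 and Il1b with log2 fold changes of 4.50, 3.43, 3.32 and 3.31. With STAT3 against empty vector, 6 of 58 were called higher and 3 lower (2.80% and 1.79% of all genes). The largest were Clec4n (2.70 ± 0.77) and the sensors Nlrp12 (2.28 ± 0.46) and Mefv (1.55 ± 0.39), with Tgm2 at 1.53 ± 0.44.

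In HPC7, 49 of the 68 listed genes were tested. With Y640F against empty vector 2 were called higher and 2 lower, which is close to the share of all genes (4.54% higher and 3.64% lower). The called genes are given as single values. The purinergic receptor gene P2rx7, whose product opens to extracellular ATP and is a trigger of NLRP3, averaged 33.6 CPM with Y640F and 8.14 CPM with empty vector (2.05 ± 0.07, adjusted p = 1.1e-10, edgeR). Fcer1g, the signalling chain that carries dectin-2, averaged 114 CPM with Y640F and 53.2 CPM with empty vector (1.09 ± 0.05). Nlrp10 averaged 6.21 CPM with Y640F and 32.6 CPM with empty vector (−2.39 ± 0.09), and Serpinb1a, a protease inhibitor gene, 1.39 and 3.51 CPM in the same order (−1.31 ± 0.20). With STAT3 against empty vector 10 of 49 were called lower and none higher (5.41% and 1.81% of all genes), 6 of them among 13 tested sensors. Position was not set apart in this count. On chromosome 1, 12 of the 20 genes nearest to Aim2 were called lower in the same comparison, so sensors lying together are not separate cases. The largest were Gbp2 (−2.59 ± 0.41), the lipopolysaccharide receptor gene Tlr4 (−1.73 ± 0.11), Trim62, whose product ubiquitinates CARD9 (−1.60 ± 0.17), and Ifi203, a relative of Aim2 (−1.44 ± 0.11). For Y640F against STAT3, 7 were called higher and 1 lower (6.17% and 1.73% of all genes), led by P2rx7 (1.91 ± 0.07), Trim62 (1.66 ± 0.16), Trim30a (1.63 ± 0.08) and Tlr4 (1.19 ± 0.11). The gene called lower was Nlrp10 (−1.08 ± 0.09), named after its values were seen.

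**Figure D5:**
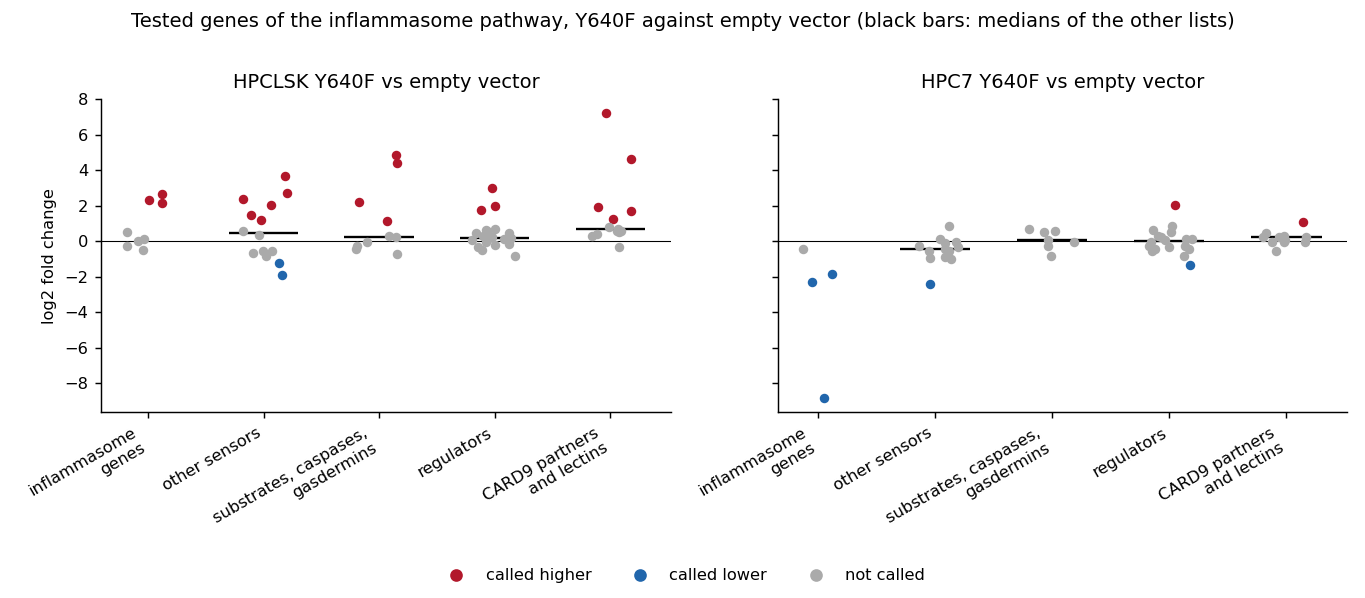
Log2 fold changes for Y640F against empty vector of the tested inflammasome genes (8 in HPCLSK, 4 in HPC7) and of 4 lists of further pathway genes (58 tested in HPCLSK, 49 in HPC7); each point is a gene, red was called higher, blue called lower and grey not called, and black bars are medians of the further lists. In HPCLSK 18 of the further genes lie among the called higher, and in HPC7 2 do, while Pycard at −8.84 is the lowest point of either panel.

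Between the lines with empty vector, 26 of 59 further pathway genes were called higher in HPCLSK and 7 lower, where 22.8% of all genes were called higher and 13.6% lower. The count of lower genes is close to the share of all genes. In HPC7 alone 49 of the 68 listed genes passed the filter, so some of the 59 entered this test through HPCLSK only. Ripk3, Gbp5 and Gbp7 are among them, so their direction was set by the filter and their values are no separate result. Ripk3, the kinase that starts necroptosis, another lytic form of cell death, had 5805 counts in HPCLSK and 2 in HPC7, a ratio of 4565 (95% interval 1263 to 37702, counting error only). Of the guanylate-binding protein genes, whose products help caspase-11 reach bacteria, Gbp5 had 321 counts in HPCLSK and 0 in HPC7, at least 168-fold higher in HPCLSK. Gbp7 had 2910 counts in HPCLSK and 5 in HPC7, and averaged 54.8 CPM in HPCLSK and 0.0640 CPM in HPC7. Serpinb1a averaged 352 CPM in HPCLSK and 3.48 CPM in HPC7 (6.69 ± 0.14, adjusted p = 2.0e-18, edgeR).

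The genes whose log2 CPM followed each member most closely over the 18 libraries were listed as a description. The points share the 2 lines and 6 groups, so the difference between lines weighs on every value. Pycard was nearest to the zinc finger genes Zfp770 and Zfp518b (Pearson r 0.996 each) and to Fam217b (0.992), on chromosomes 2 and 5. Zfp770 averaged 5.31 CPM with empty vector in HPC7, 0.0112 CPM with STAT3 and 0 with Y640F, while it kept 15.7 CPM with Y640F, 18.2 CPM with STAT3 and 18.6 CPM with empty vector in HPCLSK. Nlrc4 was nearest to Cd84 (0.994), Ankrd46 (0.993) and the glucocorticoid receptor gene Nr3c1 (0.992). Nlrp3 was nearest to Psap and the lysozyme gene Lyz2 (0.994 each), and Casp4 to Dram1, Nrp2 and Tyrobp (0.998 each). Card9 was nearest to Flot2 (0.992), the haptoglobin gene Hp (0.991) and Ltb4r1 (0.988), and Aim2 to Bivm (0.988), Lrmp (0.986) and Gtf3c3 (0.985). Casp1 and Gsdmd were nearest to genes that were likewise at 0 in every HPC7 group, Ankrd50, Pttg1 and Pmaip1 for Casp1 and Btbd6, Tmem159 and Eci2 for Gsdmd (1.000 each).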

How the data were processed

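Per the labels' protocols and the series text, mRNA was read single-end on an Illumina HiSeq, and the kit named for the libraries differs between the series text and the samples. The deposited values are raw counts of reads per gene, whole numbers made by the authors with featureCounts 1.5.1 on STAR alignments, counting exons of the GENCODE M13 annotation (GRCm38) in strand-aware mode, per the file headers. Trimmomatic is also named in the submitters' processing notes, with no version used here.

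The counts were scaled with TMM factors, filtered with filterByExpr and tested with the quasi-likelihood test of edgeR 4.0.16 (R 4.3.3, limma 3.58.1), fitting the 9 libraries of a line together (6 residual degrees of freedom). Comparisons between lines used all 18 libraries (12 residual degrees of freedom). P-values were adjusted over all genes tested. Differences in response between lines are given for the listed genes that passed the filter in both lines. Their adjustment and the shares of all genes used all 13891 genes of the fit of 18 libraries, also those below the filter in 1 line. Alternatives were DESeq2 1.42.0, RLE scaling, no filter, a test against the fold minimum, the replicate number as a block, all libraries in one fit, and leaving out libraries. The procedure was also run on simulated counts with a fixed spread and with changed genes of high counts only. That run does not cover genes with few counts.

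Library totals limit the precision to a floor of 3 counts, and intervals on counts are exact at 95% and cover counting error only. The 8 genes, the lists of pathway genes and markers, and the tests were chosen with earlier results of these data known. Of the pathway genes, the text names at most 4 called genes per comparison, those with the largest absolute change whose higher group averaged at least 1 CPM. It says where a gene was named otherwise. Nearest patterns are the 3 genes with the highest Pearson r in log2 CPM (prior count 2). Gene IDs were paired with symbols through the reference table, with 50376 of 50686 matched. Promoter sequences are from RefSeq on GRCm38.p6.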

Additional observations from a re-analysis of the deposited data

Results flagged for a closer look

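The responses of 4 genes differed between the lines in the fit of all 18 libraries with the interaction of vector and line (edgeR, adjusted over all genes). Values are the log2 fold change against empty vector in HPCLSK minus that in HPC7. With Y640F the difference was 8.80 for Pycard, 2.02 for Nlrc4 and 4.13 for Card9. With STAT3 it was 7.53 for Pycard, 2.39 for Nlrc4, 3.86 for Card9 and 0.66 for Aim2, the last under the fold minimum. Chromosome 1, which holds Aim2, had a median STAT3 difference of 0.43, and its part in the Aim2 value was not tested. Line, strain label and sequencing run cannot be told apart in these differences.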

How the results depend on the processing

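Under the alternatives, 239 counts of called genes stayed within 1.5 times the reported count and 7 did not, and 668 log2 fold changes kept their direction and call. Card9 accounts for all 7. In HPC7, Y640F against STAT3, leaving out single libraries gave 0 to 1 genes called higher. In HPCLSK, STAT3 against empty vector, it gave 0 to 1, and the test against the fold minimum gave 0 (Card9 adjusted p = 1, edgeR; edgeR's quasi-likelihood test and DESeq2 called 1, and 2 had an unadjusted p under 0.05), as did leaving out the first empty vector and first Y640F libraries together (Card9 0.98). In HPCLSK, Y640F against STAT3, leaving out single libraries gave 2 to 3 genes called higher, with Card9 at 0.98 without the third STAT3 library, and Card9 was also lost in the test against the fold minimum (adjusted p = 0.598, edgeR). The other counts were constant when single libraries were left out.

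Signs turned in 19 cases, all of uncalled values near 0. Pycard in HPCLSK, Y640F against empty vector, was −0.000626 with RLE scaling, −0.012 with no filter, −0.008969 with all 18 libraries in one fit, and −0.1047 without the pair. Without single libraries it was −0.07938 to 0.03087 (−0.04908 among them). Nlrp3 in HPCLSK, STAT3 against empty vector, was −0.645 to 0.1595 without single libraries (0.06991 and 0.07114 among them) and 0.1024 without the pair. Casp1 in HPCLSK was −0.05194 without the pair and −0.02788 to 0.2087 without single libraries for Y640F against empty vector. For Y640F against STAT3 it was −0.1301 without the pair and −0.1278 to 0.1096 without single libraries (−0.06202 among them). Nlrc4 in HPC7, Y640F against STAT3, was −0.05703 to 0.03084 without single libraries (0.001475, 0.009921 and 0.02105 among them). The cause was not tested.

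The replicate numbers were not treated as a pairing: libraries with the same number had correlations of their deviations of −0.191 to 0.097 in HPCLSK and −0.098 to 0.059 in HPC7, and 0 of 9 pairs in each line were over 0.1. With the replicate block the counts of called genes did not change: in HPCLSK 3 higher with Y640F and 1 higher with STAT3, and in HPC7 3 lower with either form. At these depths, the 4 genes under the count filter in HPC7 could not be tested there.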
